A study of Homo sapiens with 8 samples.

Results

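The genes described here encode the epithelial NADPH oxidases and their partners: NOX1, NOXO1, NOXA1, CYBA, RAC1, DUOX1, DUOX2 and DUOXA2. They were chosen by symbol as sources of hydrogen peroxide in colon epithelium and not by a rule on their values, though earlier results of these data were known. All 8 were found among the 25192 gene symbols of the deposited tables. The study reduced peroxiredoxin II (PrxII, gene PRDX2), a cytosolic enzyme that reduces hydrogen peroxide, in HT29 and SW480 cells, established colorectal cancer lines with truncated APC. Messenger RNA was sequenced in duplicate 36 h after transfection with control siRNA (siCon, directed at firefly luciferase) or Prdx2 siRNA (siPrdx2, called PrxII siRNA here), which gave 4 groups of 2 libraries and 8 libraries in all. HT29 cells grew in McCoy's 5A medium and SW480 cells in RPMI1840 as the labels spell it, both with fetal bovine serum, and each group is a single cell line, so that cell line, medium and submission of the samples cannot be told apart. In these bulk libraries, fewer cells that express a gene and less RNA per cell cannot be told apart either.

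NADPH oxidases move electrons from NADPH across a membrane to oxygen. NOX1 is the catalytic subunit best known from colon epithelium. It is stabilised in the membrane by p22phox (CYBA) and is switched on by the organizer NOXO1, the activator NOXA1 and the GTP-bound form of the small GTPase RAC1, and it releases superoxide that dismutates to hydrogen peroxide. The dual oxidases DUOX1 and DUOX2 release hydrogen peroxide directly and need the maturation factors DUOXA1 and DUOXA2 to leave the endoplasmic reticulum. In the gut, DUOX2 and DUOXA2 are known as genes that microbes and inflammation induce.

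The promoters of NOX1, NOXO1 and the DUOX2-DUOXA2 pair are shown because the levels of these genes separate the cell lines or the complexes. The NOX1 and NOXO1 sequences come from the RefSeq promoter table (GRCh38.p14), in which 7 of the 8 genes were found (RAC1 was not). Each of these 7 promoters was matched exactly once to GRCh37, the assembly behind hg19. The DUOX2-DUOXA2 sequence was taken from GRCh37 itself, between the GENCODE bounds of the genes. NOX1 lies on the minus strand of chromosome X at 100098313 to 100129348, and the 250 nt before its start are chrX:100129349-100129598. NOXO1 lies on the minus strand of chromosome 16, where its GENCODE transcripts together span 2028918 to 2034193. The RefSeq table places its start at 2031470, inside that span, and 27 nt around the motif, before the RefSeq start, are chr16:2031550-2031576, minus strand. DUOX2 (chromosome 15, 45384848 to 45406370, minus strand) and DUOXA2 (45406524 to 45410619, plus strand) are transcribed away from each other from starts that lie 154 nt apart, and the 153 nt between them are chr15:45406371-45406523, plus strand. Capitals mark the motifs found by a search for exact matches on both strands.

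NOX1 upstream: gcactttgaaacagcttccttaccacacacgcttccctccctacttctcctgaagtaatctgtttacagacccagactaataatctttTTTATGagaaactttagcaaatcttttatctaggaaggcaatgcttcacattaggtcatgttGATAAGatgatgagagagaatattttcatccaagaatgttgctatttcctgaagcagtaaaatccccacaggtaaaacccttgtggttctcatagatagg
NOXO1 upstream: acaggtggcgCTTTGATtagccctgcc
DUOX2-DUOXA2 intergenic: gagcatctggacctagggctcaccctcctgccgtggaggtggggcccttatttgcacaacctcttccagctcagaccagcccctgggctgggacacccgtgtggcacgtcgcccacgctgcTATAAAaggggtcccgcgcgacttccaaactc

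In the 250 nt before the start, the GATA motif GATAAG stood 100 nt and the CDX motif TTTATG 162 nt before the NOX1 start. None of the other 6 promoters searched held either motif, while 5.65% and 10.0% of 27305 promoters did. The TCF/LEF motif CTTTGAT stood 96 nt before the RefSeq start of NOXO1, inside the longer GENCODE span, and was in 2.28% of all promoters. The TATA box motif TATAAA, in 11.1% of promoters, stood 32 nt before the DUOXA2 start, in the window that DUOX2 shares. The interferon-stimulated response element (3.07% of promoters) was in none of the 7. GATAAG and TTTATG overlap none of the other motifs in these windows, and a match is a description of letters, not a binding site.

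The libraries held 8857442 to 10164137 expected counts, and a gene with 3 counts stood at 0.295 to 0.339 CPM, its share of the library total. PRDX2 was lower after PrxII siRNA in both lines, from 331 and 343 to 193 and 194 TPM (a level scaled by transcript length and to the same total in every library) in HT29 cells and from 482 and 560 to 169 and 172 TPM in SW480 cells. The summed level of 11 colon epithelium markers was 17249 to 18510 TPM in HT29 cells, where all 11 reached 1 TPM in every library, and 9876 to 10928 TPM in SW480 cells, where 7 did. Leukocyte markers summed to 3.60 to 10.7 TPM over all libraries, with PTPRC at 0, fibroblast markers to 1.04 to 11.3 TPM and endothelial markers to 0.10 to 1.96 TPM. SW480 control replicate 1 stood apart. Its log2 ratio to replicate 2 fell with the GC content of the transcript (Spearman rho -0.69 across 12952 genes, which are not independent replicates), against -0.19 to -0.12 in the other groups. NOXO1 (67.8% GC), NOXA1 (70.0%) and CYBA (61.2%) are GC-rich, so that SW480 values of these genes are given with and without this library. RAC1 (44.7%) is not.

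In TPM, the levels of the 8 genes formed separate tiers in HT29 cells treated with control siRNA. CYBA was highest at 387 ± 14.1 TPM (SD, n = 2), followed by RAC1 at 320 ± 3.17 TPM, NOXO1 at 38.5 and 35.5 TPM in its 2 libraries, NOX1 at 23.0 ± 0.52, NOXA1 at 7.05 ± 0.48 and DUOX1 at 0.65 ± 0.071 TPM. Neighbours among these 6 did not overlap. DUOXA2 (0.16 TPM in both libraries, 1 count each) and DUOX2 (0.07 and 0.14 TPM, 2 and 4 counts) were at counts too low to be ordered. In SW480 cells with control siRNA, RAC1 led at 321 ± 19.0 TPM and CYBA followed at 210 ± 62.5 TPM. NOXO1 (4.20 and 6.50 TPM) and NOXA1 (3.46 and 4.45 TPM) overlapped, and the other 4 genes were at 0 to 0.21 TPM. The plot of TPM by library shows these tiers.

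**Figure D1:**
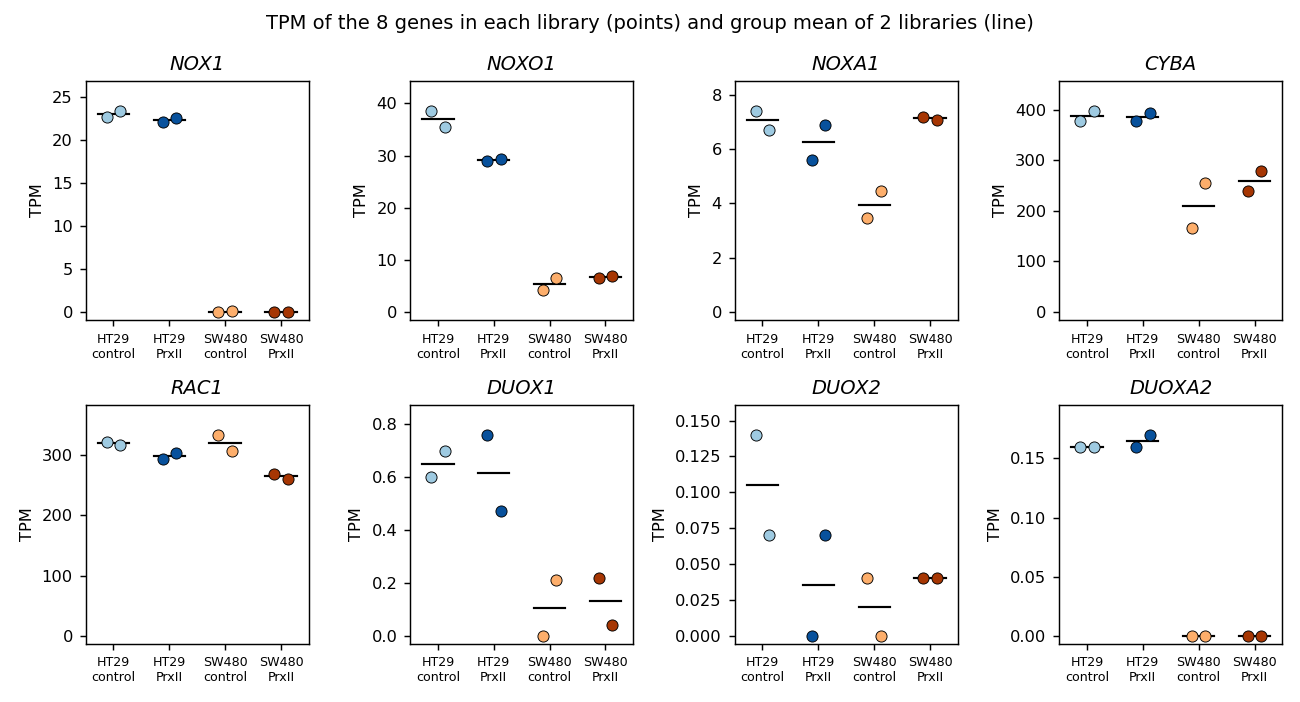
Each panel plots 1 gene, with TPM on a linear axis of its own, for the 4 groups named below it; points are single libraries (replicate 1 left, replicate 2 right) and the line is the mean of the 2. NOX1 is at 22.1 to 23.4 TPM in the 4 HT29 libraries and at 0 to 0.10 TPM in the 4 SW480 libraries, whereas RAC1 is at 261 to 334 TPM in all 8.

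NOX1, the catalytic subunit, was present in HT29 cells and almost undetected in SW480 cells. HT29 libraries held 251 and 257 NOX1 counts with control siRNA and 243 and 234 with PrxII siRNA. SW480 libraries held 0 and 1 with control siRNA and 0 and 0 with PrxII siRNA. The lines did not overlap. With control siRNA the ratio of HT29 to SW480 was 478-fold in CPM, with an exact 95% interval of 85.3 to 18898 that covers counting error only. With PrxII siRNA, NOX1 was at least 157-fold higher in HT29 cells, taking 3 counts over the group as the limit that a count of 0 allows.

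The organizer NOXO1 was lower in SW480 cells in every library. Its TPM was 38.5 and 35.5 with control siRNA and 28.9 and 29.4 with PrxII siRNA in HT29 cells, against 4.20 and 6.50, then 6.47 and 6.99, in SW480 cells. The log2 difference between control libraries was -2.91 ± 0.22 (SE, edgeR quasi-likelihood test, adjusted p = 6.73e-06). TBL3 overlaps NOXO1 on the other strand, and reads of the pair cannot be told apart there, as given below. NOXA1, the activator, had 7.39 and 6.71 TPM in HT29 controls and 3.46 and 4.45 TPM in SW480 controls, a log2 difference of -0.97 ± 0.26 (edgeR, adjusted p = 0.00905). DESeq2 did not call this difference. This difference was absent between the PrxII siRNA libraries, where NOXA1 was at 5.60 and 6.88 TPM in HT29 and 7.18 and 7.06 TPM in SW480 cells (log2 difference 0.04, edgeR adjusted p = 0.849).

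CYBA, the membrane partner of NOX1 and of phagocyte NOX2, had 377 and 397 TPM in HT29 controls and 166 and 255 TPM in SW480 controls. The log2 difference was -1.01 ± 0.19 (edgeR, adjusted p = 0.00131), and the lines did not overlap. RAC1 had 322 and 318 TPM in HT29 controls and 334 and 307 TPM in SW480 controls, which enclose the HT29 values. Its log2 difference of -0.14 had a 95% interval of -0.35 to 0.08 (edgeR, adjusted p = 0.23). With PrxII siRNA, RAC1 had 293 and 304 TPM in HT29 and 269 and 261 TPM in SW480 cells, and the lines did not overlap. The ratio of HT29 to SW480 was then 1.16-fold in CPM of the library totals, with an exact 95% interval of 1.12 to 1.21 for counting error. In TMM-scaled CPM the gap was wider, at 317 and 330 in HT29 and 261 and 253 in SW480 cells. In the PrxII siRNA libraries edgeR called RAC1 lower in SW480 cells, where 11820 of all 14438 genes tested were called.

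The dual oxidases were near the limit of detection in both lines. DUOX1 had 15 and 17 counts (0.60 and 0.70 TPM) in HT29 controls and 0 and 5 counts (0 and 0.21 TPM) in SW480 controls, and the groups did not overlap. The ratio of counts, scaled to the library totals, was 6.02-fold, with an exact 95% interval of 2.33 to 19.8 for counting error. The SW480 control with 0 counts was replicate 1, the library that stood apart, and DUOX1 has 59.0% GC. With PrxII siRNA the ratio was 4.92-fold, with such an interval of 2.02 to 14.5. DUOX2 had 8 counts over the 4 HT29 libraries and 3 over the 4 SW480 libraries, and DUOXA2 had 4 and 0. Neither passed the filter of 10 counts in 2 libraries. Without that filter edgeR gave adjusted p-values of 0.18 and 0.267 between the control libraries, so that a difference between lines was not detectable at this depth. DUOX1 and DUOX2 share 269 stretches of the length of a read, which is 4.24% of those in DUOX1, so that a few reads could be split between them. Of the DUOXA2 exons, 27.7% are overlapped by DUOXA1 on the other strand, and the kit did not mark strand.

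Between the control libraries, 5 of the 6 genes that passed the filter of 10 counts in 2 libraries were called lower in SW480 cells, where 67.5% of all 14346 genes tested were called and 31.8% were called lower. NOX1 and DUOX1 passed that filter only through HT29 cells and so had to differ, and the count is not a result about the 8 genes. The median log2 difference of the 6 tested was -1.81, against 0.04 for all genes tested. It includes NOX1 and DUOX1, so it is not a result about the 8 genes either. Without SW480 control replicate 1, and with a correction for GC content that was added after seeing the data, NOXO1, NOXA1 and CYBA were still called lower in SW480 cells. Without that library their log2 differences were -2.55, -0.71 and -0.65. RAC1 was also called lower in both settings (log2 difference -0.16 with the correction, edgeR adjusted p = 0.0167).

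In HT29 cells, NOXO1 and, by a smaller amount, RAC1 fell after PrxII siRNA. NOXO1 went from 38.5 and 35.5 TPM to 28.9 and 29.4 TPM, a log2 change of -0.41 ± 0.09 (95% interval -0.61 to -0.21; edgeR quasi-likelihood test, adjusted p = 0.00556). RAC1 went from 322 and 318 TPM to 293 and 304 TPM, a log2 change of -0.17 ± 0.03 (95% interval -0.24 to -0.10; edgeR, adjusted p = 0.00148). For either gene, the knockdown libraries did not overlap with the controls. With 2 libraries in a group such separation is weak support, here and elsewhere, and its share over all genes was not counted. NOXO1 and RAC1 were 2 of the 6 genes tested, where 17.6% of all 12961 genes were called and 9.82% were called lower.

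The other subunits showed no called change in HT29 cells. NOX1 had 22.7 and 23.4 TPM with control siRNA and 22.1 and 22.7 TPM with PrxII siRNA. The knockdown libraries were just under the lower control. Its log2 change was -0.12 with a 95% interval of -0.31 to 0.07 (edgeR, adjusted p = 0.39). CYBA had 377 and 397 TPM against 378 and 393 TPM, groups that overlapped, with a log2 change of -0.07 and an interval of -0.17 to 0.03 (edgeR, adjusted p = 0.375). NOXA1 had 7.39 and 6.71 TPM against 5.60 and 6.88 TPM, and the interval of its log2 change, -0.70 to 0.20, was wider (edgeR, adjusted p = 0.481). DUOX1 had 15 and 17 counts against 19 and 11 counts, and its interval of -0.91 to 0.66 left little that could be seen at this depth. DUOX2 and DUOXA2 were at 0 to 4 counts and did not pass the filter, and without it edgeR gave adjusted p-values of 0.567 and 0.995.

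Limits attach to both called genes. The DESeq2 test gave NOXO1 an adjusted p of 0.075, and limma on log2(TPM + 1) gave RAC1 a log2 change of -0.10 and an adjusted p of 0.0806. The TBL3 transcripts in GENCODE together overlap 98.8% of the NOXO1 exons on the other strand. The kit did not mark strand, so that reads of the pair cannot be told apart there. The counts rest on refGene models, whose overlap was not examined. TBL3 itself had 34.6 and 34.2 TPM with control siRNA and 33.4 and 37.8 TPM with PrxII siRNA in HT29 cells (log2 change -0.02, edgeR adjusted p = 0.915). In SW480 cells TBL3 had 28.4 and 40.0 TPM, then 47.9 and 46.1 TPM after PrxII siRNA (log2 change 0.37, edgeR adjusted p = 0.213). NOXO1 was at lower TPM than TBL3 there, so the same limit attaches to its SW480 values and to its difference between lines. Of the stretches of that length in RAC1, 9.95% are also in the pseudogene RAC1P2.

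**Figure D2:**
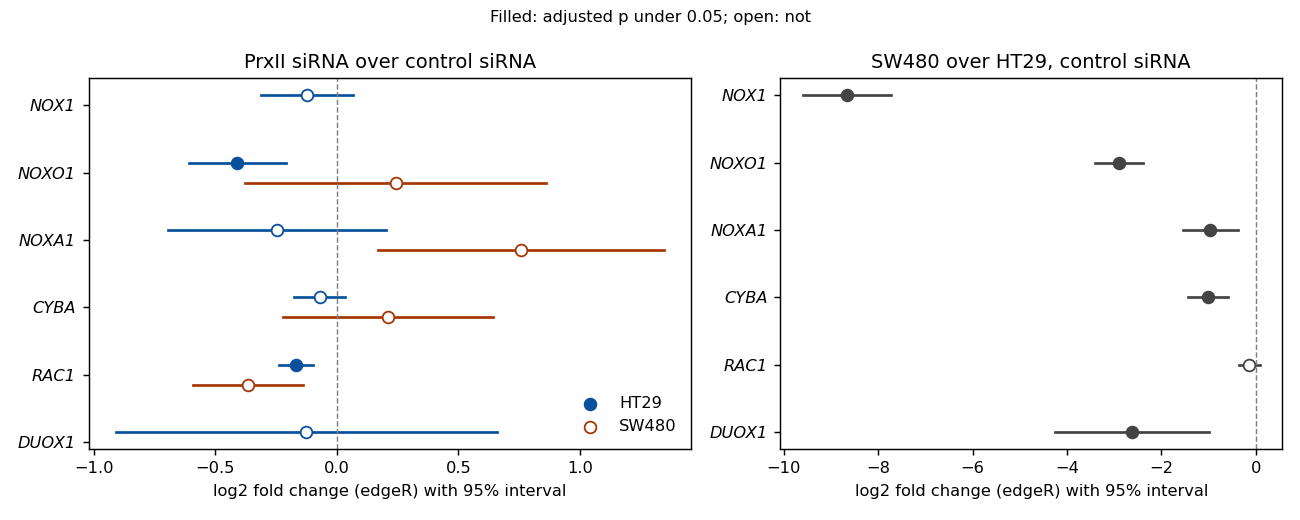
Points are edgeR log2 fold changes with 95% intervals, for PrxII siRNA over control siRNA in each line (left; HT29 blue, SW480 orange) and for SW480 over HT29 with control siRNA (right); filled points have an adjusted p under 0.05. On the left only NOXO1 (-0.41) and RAC1 (-0.17) in HT29 cells are filled; on the right all but RAC1 are, but NOX1 and DUOX1 passed the filter only through HT29 cells, and the NOX1 value depends on the prior count because SW480 controls held 0 and 1 counts.

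In SW480 cells, none of the 4 genes that passed the filter was called after PrxII siRNA by edgeR, where 3.3% of all 14112 genes were called. At an unadjusted p under 0.05 there were 2, NOXA1 and RAC1, and DESeq2 called 1, RAC1, but gave NOXO1 and NOXA1 no adjusted p. RAC1 went from 334 and 307 TPM to 269 and 261 TPM, so that both PrxII siRNA libraries lay below both controls, with a log2 change of -0.36 ± 0.10 (95% interval -0.59 to -0.14; edgeR, adjusted p = 0.0807). NOXA1 went from 3.46 and 4.45 TPM to 7.18 and 7.06 TPM, with a log2 change of 0.76 ± 0.26 (95% interval 0.17 to 1.35; edgeR, adjusted p = 0.128), and again the groups did not overlap. NOXO1 went from 4.20 and 6.50 TPM to 6.47 and 6.99 TPM, groups that overlapped (log2 change 0.24, interval -0.38 to 0.86; edgeR, adjusted p = 0.606). CYBA went from 166 and 255 TPM to 239 and 279 TPM, also overlapping (log2 change 0.21, interval -0.22 to 0.64; edgeR, adjusted p = 0.518). NOX1, DUOX1, DUOX2 and DUOXA2 did not pass the filter.

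The GC-rich genes moved with control replicate 1. The log2 ratio of replicate 1 to replicate 2 in the SW480 controls was -0.63 for NOXO1, -0.39 for NOXA1 and -0.64 for CYBA, against 0.10 for RAC1. The median log2 change over 1994 genes of at least 60% GC in SW480 cells was 0.28, against 0.0022 for all genes tested. Without control replicate 1, the log2 change of NOXO1 was -0.04, that of CYBA -0.07 and that of NOXA1 0.58. With the GC correction, NOXO1 stood at -0.10, NOXA1 at 0.37 (edgeR, adjusted p = 0.32) and RAC1 at -0.25 (edgeR, adjusted p = 0.012). Without control replicate 2, the log2 change of CYBA was 0.56. The part of the GC tilt in these values was not tested beyond these settings.

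**Figure D3:**
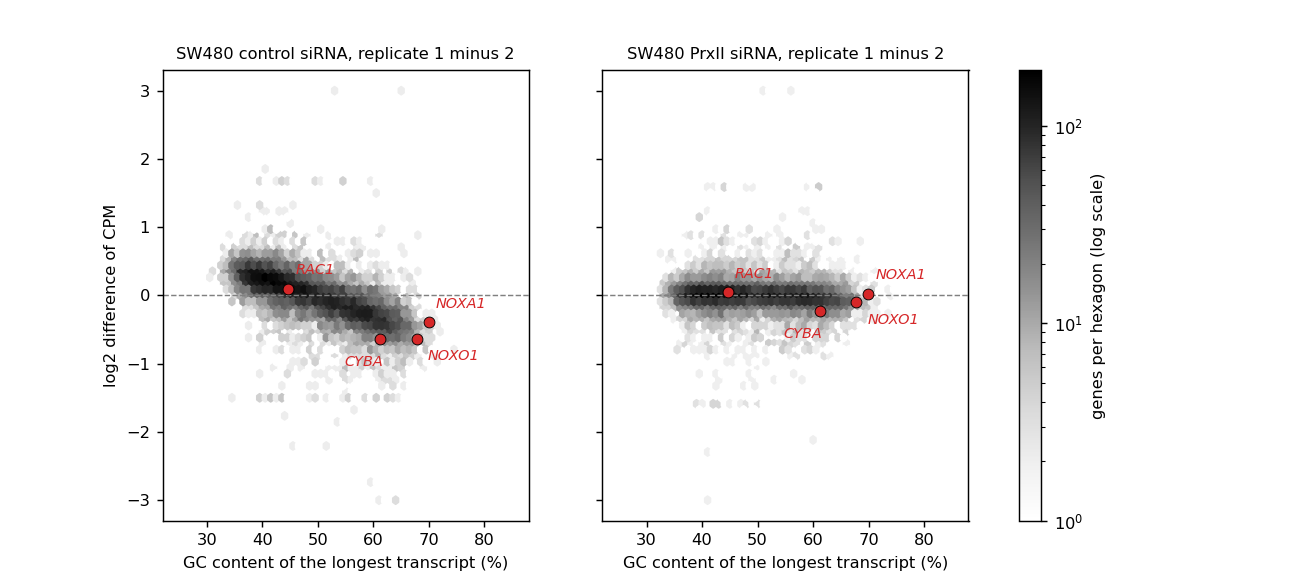
Hexagons count genes by transcript GC content (horizontal, percent) and log2 difference of CPM between replicates 1 and 2 (vertical, values beyond 3 drawn at 3) for SW480 control siRNA (left) and PrxII siRNA (right); red points are the 4 genes tested. The left cloud slopes down, with NOXO1 at -0.63 and CYBA at -0.64, whereas the right cloud is nearly flat (Spearman rho -0.12).

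The PrxII siRNA effect was then compared between the lines in 1 fit of all 8 libraries, as the HT29 effect minus the SW480 effect. No gene of the 6 tested was called by edgeR, where 1.12% of all 14772 genes were called, and 2 had an unadjusted p under 0.05. DESeq2 gave an adjusted p to 2 of the 6, CYBA (0.508) and RAC1 (0.344), and none had an unadjusted p under 0.05 there. NOXA1 differed by -1.0 ± 0.32 on the log2 scale (95% interval -1.70 to -0.30; edgeR, adjusted p = 0.14), and NOXO1 by -0.65 ± 0.27 (interval -1.24 to -0.06; edgeR, adjusted p = 0.225). Without SW480 control replicate 1 these differences were -0.82 and -0.37, and with the GC correction -0.54 and -0.25. The RAC1 effects, -0.17 in HT29 and -0.36 in SW480 cells, differed by 0.20 with an interval of -0.01 to 0.40 (edgeR, adjusted p = 0.276). The NOX1 value of this comparison rests on 1 count in SW480 cells and is not interpreted.

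**Figure D4:**
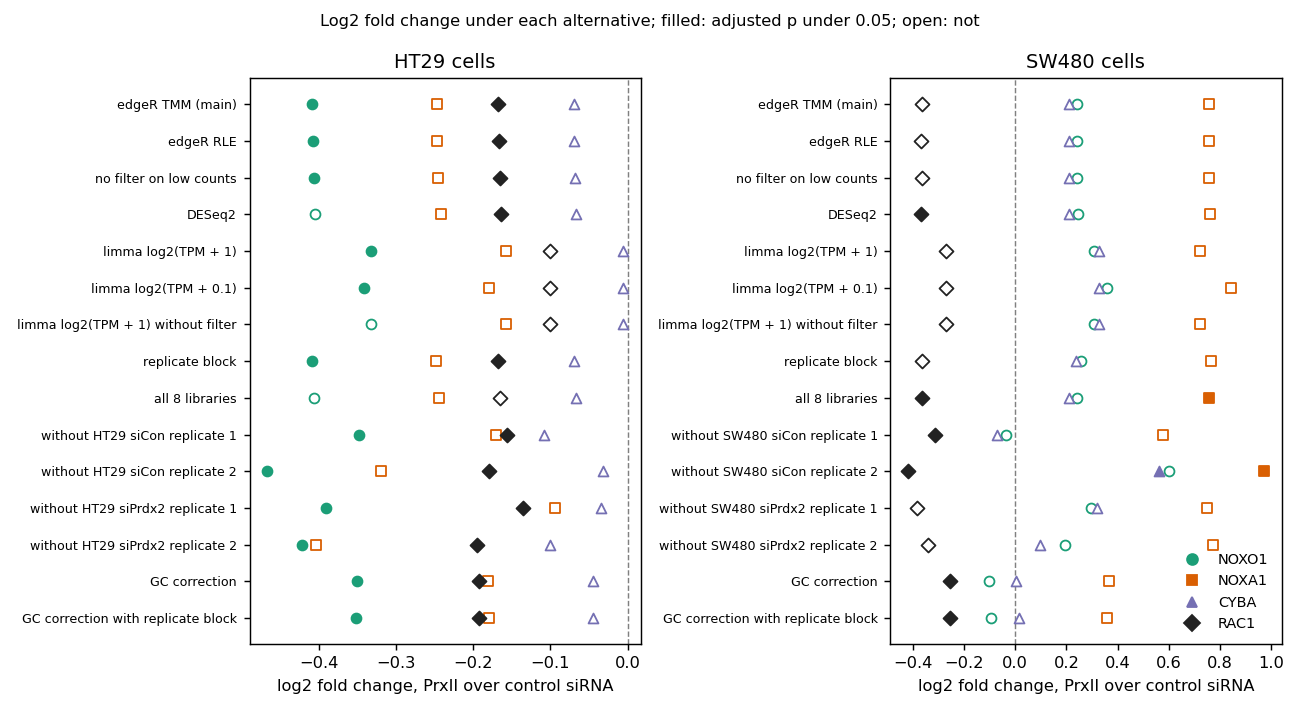
Each row is an alternative processing of the same comparison and each point the log2 change of a gene after PrxII siRNA in HT29 (left) and SW480 cells (right); filled points have an adjusted p under 0.05, and the horizontal scales differ. In HT29 cells NOXO1 stays between -0.47 and -0.33 and RAC1 between -0.20 and -0.10, whereas in SW480 cells NOXO1 spans -0.10 to 0.60.

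Among 13 other oxidase genes and partners, some of the phagocyte complex differed between the lines, at low counts and not all in the same direction. NOX3 and NOX4 had no count, NOX5 had 1 count in all, and NCF1, an organizer of the phagocyte oxidase, had 3. CYBB, the phagocyte catalytic subunit NOX2, had 23, 12, 14 and 16 counts in the HT29 libraries and 3 or 4 in each SW480 library, so that it passed the filter only through HT29 cells. NCF4, another phagocyte subunit, had 0, 0, 0 and 1 counts in HT29 and 11 to 16 in SW480 libraries.

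Both other RAC GTPases were also present. RAC2 had 23.8 to 26.6 TPM in HT29 and 34.0 to 46.8 TPM in SW480 cells, and RAC3 had 22.8 to 27.0 and 18.4 to 26.7 TPM, all below RAC1. POLDIP2, a partner described for NOX4, had 83.8 to 97.9 and 111 to 153 TPM. C17orf62, a chaperone of the phagocyte oxidase, had 48.5 to 68.3 TPM over all libraries, and TXNDC11, a DUOX-binding protein, had 23.1 to 31.3 TPM. The DUOX1 maturation factor DUOXA1 had 1 or 2 counts in each HT29 library and 0 in SW480 libraries. Of this list, 4 genes were called higher and 2 lower in SW480 controls, of 8 tested, where 67.5% of all genes were called. Counts between the lines, here and for the lists that follow, include genes that passed the filter through 1 line alone. After PrxII siRNA edgeR called 0 of 6 tested in HT29 and 0 of 7 in SW480 cells, and in each line 1, POLDIP2, had an unadjusted p under 0.05. DESeq2 called none in either line, and gave 6 of 10 genes in HT29 and 5 of 10 in SW480 cells no adjusted p. POLDIP2 was called higher in SW480 cells in 5 of 14 alternatives.

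**Figure D5:**
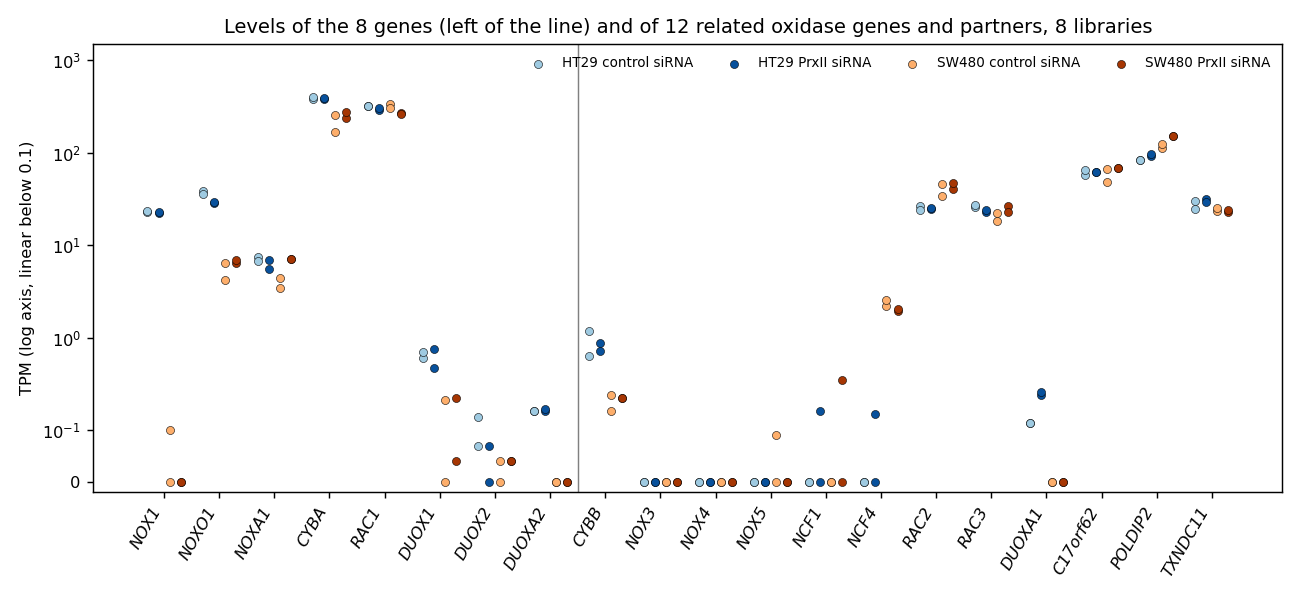
TPM of the 8 genes (left of the line) and of 12 related genes (right) in each of the 8 libraries, on a logarithmic axis that is linear below 0.1; colours are the 4 groups. NOX1 and NOXO1 are the genes left of the line with the widest gap between lines at more than 1 TPM, and NCF4 lies higher in SW480 cells.

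RAC1 cycles between a GDP-bound and a GTP-bound form under exchange factors, GTPase-activating proteins and GDP-dissociation inhibitors, and 20 such regulators were examined. In HT29 cells, 2 rose and 4 fell of 12 tested (median log2 change -0.11, against -0.00048 for all genes, of which 17.6% were called and 9.82% called lower). ARHGDIB, a GDP-dissociation inhibitor, fell from 104 and 110 to 75.4 and 79.2 TPM (log2 change -0.53, edgeR adjusted p = 1.84e-05). RACGAP1 (-0.26) and ECT2 (-0.16) also fell, and the exchange factors VAV2 (0.23) and TRIO (0.17) rose. In SW480 cells edgeR called 0 of 17, with 8 at an unadjusted p under 0.05, and DESeq2 called 0 with 4 at such a p, giving 6 of 18 no adjusted p. The edgeR count moved with the control library left out. With the GC correction 3 were called, where 2193 of all 12419 genes tested were called. Between the controls 7 were higher and 4 lower in SW480 cells of 16 tested, near the share of 67.5% over all genes. TIAM1, an exchange factor for RAC1, had 0, 0, 0 and 1 counts in HT29 and 349 to 519 in SW480 libraries, and PREX1, another, had 5 to 9 and 202 to 280. CHN1 and ARHGEF6 were likewise higher in SW480 cells, with 494 to 708 and 10 to 19 counts there, while ARHGDIB was lower, with 9 to 26 counts.

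Of 15 transcription factors of intestinal epithelium and of interferon and NF-kB signalling, 4 were higher and 7 lower in SW480 controls, of 13 tested, where 67.5% of all genes were called and 31.8% called lower. GATA6, the intestinal GATA factor detected here, had 23.7 to 29.6 TPM in HT29 and 0.54 to 1.51 TPM in SW480 libraries, and the lines did not overlap. GATA4 had no count and GATA5 had 0 to 2. CDX1 (1.40 to 2.55 against 0.14 to 0.28 TPM) and IRF9 (41.0 to 50.8 against 9.35 to 14.7 TPM) were also lower in SW480 cells. CDX2, a homeobox factor of intestinal identity, was higher there, at 18.8 to 31.5 TPM against 8.23 to 13.7 TPM. GATA6 and CDX1 thus lay on the side of NOX1, and CDX2 on the other. No link between any of them and NOX1 was tested.

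After PrxII siRNA in HT29 cells, 1 of these factors rose and 1 fell of 13 tested, where 17.6% of all genes were called. CDX2 rose from 8.58 and 8.23 to 13.7 and 12.6 TPM (log2 change 0.58, edgeR adjusted p = 0.00668). DESeq2 called no factor higher. GATA6 was not called (log2 change 0.09, edgeR adjusted p = 0.451). In SW480 cells edgeR called 0 of 11, with 3 at an unadjusted p under 0.05, and DESeq2 called 0, also with 3, giving 5 of 14 no adjusted p. The edgeR count also moved with the control library left out. With the GC correction 2 were called, where 2193 of all 12419 genes tested were called.

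The genes whose log2 CPM followed NOX1 most closely over the 8 libraries, of 14771 compared, were ALOX5, RAB25 and VSIG2 (Pearson r of 0.9999, 0.9998 and 0.9998). The 8 points form 2 clusters, the cell lines, so these values describe presence in HT29 and near absence in SW480 cells. ALOX5, the leukotriene-forming 5-lipoxygenase, had 293, 294, 243 and 260 counts in HT29 libraries and 0, 1, 0 and 0 in SW480 libraries, almost the counts of NOX1. RAB25, an epithelial trafficking GTPase, had 1356 to 1463 counts against 0 to 2. For DUOX1, taken because DUOX2 was too low, the closest were DNLZ (r = 0.992), SHANK2 (0.983) and SMARCA5-AS1 (0.980), and SW480 control replicate 1 was the lowest library for all 3.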

How the data were processed

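The authors sequenced poly(A) libraries made with an unstranded kit as paired reads, aligned them to hg19 with MapSplice and estimated refGene abundance with RSEM; these steps are described for HT29 cells and SW480 files have the same layout. The deposited values are the expected count, TPM and FPKM of each gene. The authors' expected counts, which RSEM estimates and does not normalize, were rounded (739 to 891 values per library were not whole, none of the 8 genes). The deposited TPM share a fixed total and give levels per length; the deposited FPKM served only to check totals.

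Counts were tested with edgeR 4.0.16 (glmQLFit and glmQLFTest, TMM, Benjamini-Hochberg over all genes tested, threshold 0.05, at least 10 counts in 2 libraries) in R 4.3.3, within each line, between control libraries, and as a difference of effects over all 8 libraries. Alternatives were RLE, no filter, DESeq2 1.42.0, limma 3.58.1 with a trended prior on log2(TPM + 1) and log2(TPM + 0.1), a replicate block, a joint fit and each library left out. A GC correction (loess, span 0.5, on transcript GC content, known for 82.3% of symbols) was added after seeing the data. Scripts were tested on simulated counts.

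The genes and lists were chosen with earlier results of these data known. The text names all 8 genes, PRDX2, at most 5 called genes of each list by size of change, related oxidase genes at 1 TPM or more, and the 3 genes most like NOX1 and DUOX1; TBL3, list genes at or near 0 counts, GATA4, GATA5, CDX2 between lines and GATA6 in HT29 cells were named after their values were seen. Some genes that this rule takes and a motif searched are not reported here. A heat map legend of the paper speaks of duplicate experiments in HT29 cells. Neither it nor the labels say that the duplicates came from separate cultures. The p-values thus measure only the spread between these libraries, which may be technical. Counting intervals and limits cover counting error only. Coordinates and overlaps are from GENCODE v44 lifted to GRCh37.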

Additional observations from a re-analysis of the deposited data

Results flagged for a closer look

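The NOXA1 effect of PrxII siRNA pointed in opposite directions in the cell lines. In TMM-scaled CPM, both PrxII siRNA libraries lay below both controls in HT29 cells and above both controls in SW480 cells, and the HT29 effect minus the SW480 effect was -1.0 on the log2 scale (edgeR, adjusted p = 0.14). In TPM the HT29 groups overlapped, at 5.60 and 6.88 TPM after PrxII siRNA against 7.39 and 6.71 TPM, and 40 to 53 counts lay behind each HT29 value. With the GC correction the difference was -0.54 (edgeR, adjusted p = 0.328), and its adjusted p ranged from 0.0144 (without SW480 control replicate 2) to 0.405 over the 16 alternatives that gave one.

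The knockdown itself differed between the lines. PRDX2 fell by 0.87 on the log2 scale in HT29 cells and by 1.70 in SW480 cells, a difference of 0.84 (edgeR, adjusted p = 0.0128) that was called in 10 of 17 alternatives.

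MAOA is a mitochondrial monoamine oxidase whose reaction releases hydrogen peroxide. It was the gene of the list of possible peroxide sources with a called difference of effect, at 0.92 on the log2 scale (edgeR, adjusted p = 0.02). It was called in 8 of 17 alternatives, with values of 0.80 to 1.03.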

How the results depend on the processing

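NOXO1 kept its direction in HT29 cells in all 14 alternatives and was called in 11, and RAC1 also kept its direction and was called in 10. The number of the 8 genes called in HT29 cells, 2 in the reported fit, was 1 with DESeq2, 1 with limma on log2(TPM + 1), 1 with limma on log2(TPM + 0.1), 0 with limma without a filter and 0 in the joint fit of all 8 libraries. NOXO1 lost its call with DESeq2 (adjusted p = 0.075), limma without a filter (0.0708) and the joint fit (0.236), and RAC1 with limma (0.0806 to 0.135) and the joint fit (0.309). In SW480 cells the number went from 0 to 1 with DESeq2, 2 in the joint fit, 1 with the GC correction and 1 with the GC correction and replicate block. With a library left out, 2 to 2 genes were called in HT29 cells, 0 to 3 in SW480 cells (1 without control replicate 1, 3 without control replicate 2), 3 to 6 between lines (3 without either HT29 control, where 4 passed the filter) and 0 to 4 for the difference of effect (4 without SW480 control replicate 2). The lone library of a group was then assumed to vary like the others.

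Over all genes, the calls with a library left out numbered 1574 to 2030 in HT29 cells, 87 to 7364 in SW480 cells, 6905 to 9970 between lines and 6 to 5237 for the difference of effect. In SW480 cells, 3437 genes were called without control replicate 1 and 7364 without control replicate 2, against 466. HT29 calls were 2279 in the reported fit (1006 higher, 1273 lower), 1029 with DESeq2, 451 with limma without a filter and 185 in the joint fit; limma on log2(TPM + 1) split 1221 higher and 540 lower, and on log2(TPM + 0.1) 1210 and 534. SW480 calls were 466 (172 higher, 294 lower), 209 (124 and 85) and 185 (110 and 75) with limma, 0 with limma without a filter, 1727 (858 and 869) with the replicate block, 2415 in the joint fit, 2193 with the GC correction and 2896 with the GC correction and replicate block. Calls for the difference of effect were 166, then 267 without a filter on counts, 302 with DESeq2, 93, 48 and 78 with the 3 limma settings, 894 with the GC correction and 787 with the GC correction and replicate block. The causes were not tested.

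Directions reversed in 14 cases. In HT29 cells DUOX1 was 0.16 without PrxII siRNA replicate 2 (range with a library left out -0.51 to 0.16). In SW480 cells NOXO1 was -0.037 without control replicate 1 (range -0.037 to 0.60), -0.10 with the GC correction and -0.096 with the GC correction and replicate block, and CYBA was -0.072 without control replicate 1 (range -0.072 to 0.56). Between lines NOXA1 was 0.045 in the PrxII siRNA libraries and RAC1 was 0.0012 in the 3 limma settings. For the difference of effect NOX1 was -0.12 without SW480 control replicate 2 (range -0.12 to 3.05), CYBA 0.0022 without SW480 control replicate 1 (range -0.65 to 0.0022), and DUOX1 0.03, 0.65 and 1.21 without HT29 PrxII siRNA replicate 2, SW480 control replicate 1 and SW480 PrxII siRNA replicate 1 (range -4.69 to 1.21). DUOX1 and DUOX2 summed as 1 gene kept the direction of DUOX1 in each comparison. PRDX2 was lower after PrxII siRNA in each alternative, by log2 changes of -0.89 to -0.80 in HT29 and -1.85 to -1.58 in SW480 cells. Over the alternatives, calls in HT29 and SW480 cells numbered 0 to 0 and 0 to 2 for the oxidase family list. They numbered 0 to 6 and 0 to 10 for RAC1 regulators and 0 to 3 and 0 to 6 for transcription factors. For the other possible peroxide sources they numbered 0 to 7 and 0 to 10.

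Deviations of libraries with the same replicate number correlated at -0.03 to 0.05 across 14772 genes. Pairing by replicate number was thus not seen, but such a correlation cannot exclude it. Over all genes, the replicate block gave 2889 calls in HT29 and 1727 in SW480 cells, against 2279 and 466. With the replicate block, 2, 0, 5 and 0 of the 8 genes were called in HT29 cells, in SW480 cells, between lines and for the difference of effect, the counts of the reported fit. NOX1, DUOX1, DUOX2 and DUOXA2 in SW480 cells are limited by depth. Of the ranks of the 8 genes by mean level in each group, 20 were the same in TMM-scaled CPM as in TPM and 12 moved.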

Other observations

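A further list held 30 other enzymes taken as possible sources of hydrogen peroxide, and not each of them need produce it. Of 20 tested, 1 rose and 4 fell in HT29 cells after PrxII siRNA, where 17.6% of all genes were called and 9.82% called lower. The lysyl oxidase genes LOXL1 (log2 change -0.77, edgeR adjusted p = 0.000571) and LOXL4 (-0.40, adjusted p = 0.00191) fell with SUOX, the sulfite oxidase (-0.29), and ERO1L, the endoplasmic reticulum oxidase (-0.23), while SMOX, the spermine oxidase, rose (0.21). In SW480 cells, where 3.3% of all genes were called, 2 of 25 tested fell and edgeR called none higher: ERO1L (-0.75, edgeR adjusted p = 0.0486) and MAOA (-0.75, adjusted p = 0.0339). MAOA went from 15.4 and 12.9 to 9.02 and 8.87 TPM there, against 21.1 and 22.7 to 25.2 and 26.4 TPM in HT29 cells, where it was not called (0.17, edgeR adjusted p = 0.0694). The median log2 change of the list was -0.0032 in HT29 and -0.07 in SW480 cells, against -0.00048 and 0.0022 for all genes tested.

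Between the control libraries, 13 of these enzymes were higher and 8 lower in SW480 cells, of 26 tested, where 67.5% of all genes were called. LOXL2, a lysyl oxidase of the extracellular matrix, had 0 or 1 counts in each HT29 library and 334 to 426 in SW480 libraries, and ERO1LB had 2 to 6 and 161 to 264. DDO, a D-aspartate oxidase, had 0 or 1 and 3 to 12 counts, and IL4I1, an L-amino acid oxidase, had 0.29 to 0.77 and 8.80 to 16.7 TPM. PIPOX was the other way, at 0.93 to 1.60 against 0 to 0.69 TPM.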
